A study of Mus musculus with 3 samples.

Results

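The regions described here are 471 of the 733 NF-Y peaks of the embryonic mouse cortex (64.3%, 95% Wilson interval 60.7 to 67.6), chosen by a rule on sequence and summit: 2 or more CCAAT boxes, read on either strand, had to lie wholly within 100 bp of the peak's summit in the GRCm38 genome. The peaks came from chromatin immunoprecipitation followed by sequencing (ChIP-seq) of cortices dissected at E13.5, a mid-gestation stage at which the cortex holds dividing progenitors and young neurons. There were 3 libraries, an input without antibody, an NF-Y-ChIP made with an antibody to the NF-YC subunit, and an H3K4me3-ChIP, made with an antibody to the methylated histone H3 that marks active promoters. The labels name no genotype, strain or treatment, the number of embryos behind a library is not given in the sources used here, and the study used the ChIP to find genes bound by NF-Y early in corticogenesis. With 1 library per antibody there is no spread between samples, so every interval below describes the peaks or boxes of these lists and no p-value is given.

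NF-Y is a trimer of NF-YA, NF-YB and NF-YC. NF-YB and NF-YC fold like a pair of core histones and hold the DNA backbone, while NF-YA reads the CCAAT letters in the minor groove and bends the DNA. CCAAT boxes are a common element of mammalian promoters, where they sit a short way upstream of the transcription start site (TSS), and promoters of cell cycle genes and of endoplasmic reticulum (ER) chaperone genes are known for carrying several.

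The summit, which helped to choose the regions, is the position where the authors' peak caller placed the highest pile of NF-Y-ChIP reads, and fold enrichment is the height of that pile over the background the caller estimated. Among the 471 regions, 274 held 2 boxes, 130 held 3, 52 held 4, 13 held 5 and 2 held 6, which made 1223 boxes in all. The regions lay on chromosomes 1 to 19 and X, and no window overlapped that of another region. Another 210 peaks held 1 box and 52 held none. Windows of the same 201 bp placed 500 bp to each side of the 471 summits held 2 or more boxes in 3.72% of cases (35 of 942). For comparison, 12337 promoters were taken that carried H3K4me3 but had no summit of NF-Y-ChIP, each counted within 1 kb of a coding gene's 5′ end, and windows of the same length were centred 57 bp upstream. Of these, 8.20% (1012) held 2 or more boxes. Among windows with any box, 69.2% of peaks and 28.6% of these comparison promoters held 2 or more, with intervals of 65.6 to 72.5 and 27.2 to 30.1. Peak windows were centred on summits and comparison windows at a fixed distance from gene 5′ ends, so shares and spacings in the 2 sets are not on equal terms. At the edge of the rule, the outer end of the second box lay 96, 97 and 99 bp from the summit at A430035B10Rik, Hsd17b12 and Ehd4, with fold enrichments of 4.59, 4.95 and 8.23. It lay 102, 104 and 105 bp away at Txndc16, Osbpl2 and Gm24574, which stayed outside with 8.99, 5.82 and 6.50.

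The sequences below are GRCm38 reference sequence on the strand of the nearest gene, 5′ to 3′, with the boxes in capitals, so that CCAAT is a box on the gene's strand and ATTGG a box on the other. Boxes beyond 100 bp from the summit stay in lower case. The first set holds the 4 regions with the highest fold enrichment, each with a different layout of boxes.
Hnrnpab, chr11:51606903-51606980, minus strand: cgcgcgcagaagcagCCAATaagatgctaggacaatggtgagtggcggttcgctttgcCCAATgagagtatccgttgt
Fam204a, chr19:60226688-60226741, minus strand: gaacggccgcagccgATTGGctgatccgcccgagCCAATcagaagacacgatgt
Iars, chr13:49682036-49682116, plus strand: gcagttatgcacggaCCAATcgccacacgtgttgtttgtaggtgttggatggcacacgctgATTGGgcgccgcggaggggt
Ilf2, chr3:90476034-90476115, plus strand: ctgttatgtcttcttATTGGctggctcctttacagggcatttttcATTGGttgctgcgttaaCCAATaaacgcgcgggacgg

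The next set shows pairs within 2 bp of the commonest distance for each relative orientation, 2 regions for each. Ibtk and Klf10 carry boxes in the same orientation, Ccdc66 and Fosb carry ATTGG followed by CCAAT (back-to-back), and Vwf and Dhcr7 carry CCAAT followed by ATTGG (facing).
Ibtk, chr9:85749350-85749415, minus strand: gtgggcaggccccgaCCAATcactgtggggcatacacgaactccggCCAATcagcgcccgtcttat
Klf10, chr15:38300768-38300834, minus strand: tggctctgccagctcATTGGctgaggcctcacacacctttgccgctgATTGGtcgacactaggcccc
Ccdc66, chr14:27508497-27508555, minus strand: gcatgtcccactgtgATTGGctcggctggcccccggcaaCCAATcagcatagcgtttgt
Fosb, chr7:19308593-19308653, minus strand: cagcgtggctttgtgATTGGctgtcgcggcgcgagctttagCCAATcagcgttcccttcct
Vwf, chr6:125573369-125573440, plus strand: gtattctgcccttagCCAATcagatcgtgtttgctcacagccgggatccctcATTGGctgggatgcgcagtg
Dhcr7, chr7:143830114-143830184, plus strand: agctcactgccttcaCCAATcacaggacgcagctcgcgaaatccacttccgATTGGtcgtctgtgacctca

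The last of these sets shows long arrays in a single orientation, with 6 boxes at 3110056K07Rik and 5 at Arntl.
3110056K07Rik, chr12:71015799-71015984, minus strand: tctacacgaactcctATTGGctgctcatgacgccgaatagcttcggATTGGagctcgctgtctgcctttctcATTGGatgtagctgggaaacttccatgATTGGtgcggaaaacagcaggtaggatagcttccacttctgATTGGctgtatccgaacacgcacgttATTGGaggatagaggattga
Arntl, chr7:113207203-113207390, plus strand: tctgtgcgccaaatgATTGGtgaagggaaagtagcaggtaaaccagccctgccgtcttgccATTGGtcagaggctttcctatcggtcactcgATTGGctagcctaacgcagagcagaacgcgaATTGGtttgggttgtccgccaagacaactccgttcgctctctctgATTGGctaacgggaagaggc

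The summits of the Fam204a, Ibtk, Fosb and Dhcr7 regions fell in exons and that of Vwf in an intron, whereas the other summits of these 3 sets lay outside genes. The summit of the Hnrnpab region, at a gene for an RNA-binding protein, lay 85 bp upstream of the TSS. Its fold enrichment was 53.1, the highest of the 733 peaks, and its 2 boxes stood 43 bp apart, counted start to start, in the same orientation. The Fam204a region followed at 43.7-fold with back-to-back boxes 19 bp apart, with its summit 4 bp upstream of the nearest TSS. Iars, which encodes the cytoplasmic isoleucyl-tRNA synthetase, had facing boxes 46 bp apart at 39.1-fold. Ilf2, which encodes a double-stranded RNA-binding partner protein, had 3 boxes at 34.2-fold. No single spacing or orientation was common to these 4 regions. Ilf2 held a same-orientation pair, as Hnrnpab did, and a back-to-back pair 17 bp apart, close to the 19 bp of Fam204a.

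Neighbouring boxes stood at preferred distances, and these distances depended on their relative orientation. The 471 regions held 744 pairs of neighbouring boxes that did not overlap, with a median spacing of 37 bp (interval 35 to 39, quartiles 30 and 52, range 5 to 161). The 1218 pairs of the comparison promoters had a median of 41 bp (40 to 42). Of the 744 pairs, 64.5% (61.01 to 67.9) had the same orientation, 20.03% were back-to-back and 15.5% were facing. The comparison promoters gave 65.8%, 20.2% and 13.96%, with overlapping intervals for each orientation.

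Among the 480 pairs in the same orientation, the commonest spacing was 31 bp (43 pairs), and the counts made separate humps. Spacings of 29 to 33 bp took 29.4% of these pairs (25.5 to 33.6), those of 34 to 38 bp took 7.08%, those of 39 to 43 bp took 19.4% and those of 44 to 48 bp took 4.17%. The same humps stood in the 802 pairs of the comparison promoters, where the shares were 21.6% (18.9 to 24.5), 4.74%, 14.96% and 6.61%. The hump at 29 to 33 bp was larger in the NF-Y regions, with intervals that did not overlap, and the hump at 39 to 43 bp had overlapping intervals (16.1 to 23.1 against 12.7 to 17.6). The comparison pairs showed a further rise at 49 to 53 bp, with 9.98% against 7.08% in the NF-Y regions. The ranges were drawn around humps seen in these counts.

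Back-to-back pairs sat closer together and on other distances. Their median was 27 bp (26 to 33), against 34 bp (30 to 35) in the comparison promoters, and their commonest spacing was 25 bp (14 of 149 pairs). Spacings of 23 to 27 bp took 24.2% of them (17.99 to 31.6), against 13.4% (9.71 to 18.2) in the comparison promoters, with intervals that just overlap. With the range moved to 25 to 29 bp the shares were 24.2% and 17.5% (13.2 to 22.7). The other humps, at 15 to 19 bp with 19.5% and at 33 to 37 bp with 16.1%, stood on either side of it, and the stretch from 28 to 32 bp took 6.71%. In the comparison promoters these 2 humps took 11.4% and 12.2%, with intervals that overlap those of the regions. In 5 pairs the boxes abutted, 5 bp apart. Facing pairs were commonest at 37 bp (9 of 115 pairs), and 20.9% of them stood 35 to 39 bp apart (14.4 to 29.2), against 12.9% (8.70 to 18.8) in the comparison promoters. Spacings under 15 bp were rare in each orientation, with 1.25% of same-orientation, 1.74% of facing and 6.04% of back-to-back pairs, against 3.87%, 8.24% and 10.2% in the comparison promoters. Between 15 and 24 bp only 29.9% of all pairs had the same orientation, whereas between 25 and 34 bp 72.2% had. The comparison promoters showed the same pattern, with 37.8% and 72.0%.

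**Figure D1:**
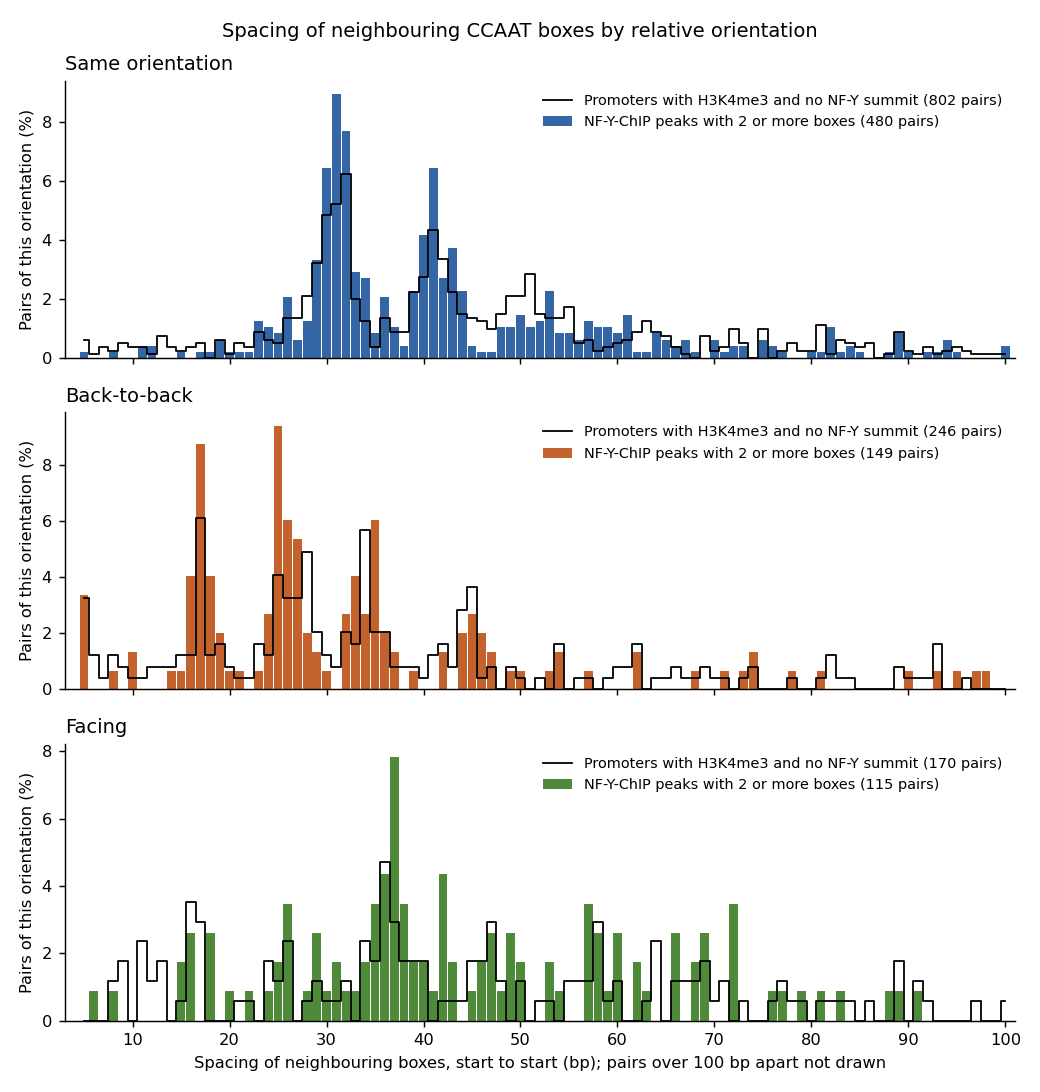
Spacing of neighbouring CCAAT boxes, start to start in bp (x axis), as a percentage of the pairs of each orientation (y axis), for the NF-Y regions (bars) and the comparison promoters (black line). Pairs in the same orientation peak near 31 and 41 bp, back-to-back pairs near 17, 25 and 35 bp, and facing pairs near 37 bp, and the comparison promoters have humps near the same spacings, mostly lower.

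A same-orientation pair 29 to 33 bp apart was present in 132 regions (28.03%). In 262 regions (55.6%, 51.1 to 60.05) all boxes shared one orientation, and this share was 64.6% with 2 boxes, 45.4% with 3 and 38.5% with 4. Regions with 3 boxes spanned a median of 84 bp from the first to the last box start, and those with 4 or more spanned 122 bp. Pairs shared an orientation equally often in regions with 2, 3 and 4 or more boxes (64.6%, 64.3% and 64.7%). Among the 59 regions with 3 boxes in one orientation, 5 had both spacings at 29 to 33 bp and 25 had 1 of them there. The 6 boxes of 3110056K07Rik, an uncharacterized gene, all read ATTGG on the gene's strand, with spacings of 31, 26, 27, 41 and 26 bp. Those of Arntl, the clock gene that encodes BMAL1, also all read ATTGG, with spacings of 46, 31, 31 and 45 bp and a fold enrichment of 21.1.

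The boxes lay upstream of the TSS and in either direction relative to the gene. Of the 471 summits, 434 (92.1%, 89.4 to 94.2) were within 1 kb of a TSS and 302 (64.1%) within 100 bp, against 82.4% (76.7 to 86.9) and 59.0% of the peaks with 1 box. In relation to GENCODE genes, 59.0% of the summits lay outside genes, 21.7% in an exon and 19.3% in an intron. The median summit within 1 kb was 57.5 bp upstream (interval -64 to -52), compared with -42 bp (-51 to -35) for peaks with 1 box. It was -50 bp (-58 to -43) with 2 boxes, -64.5 bp (-78 to -51) with 3 and -86.5 bp (-118 to -64) with 4 or more, where the interval with 3 overlaps both others. Of the 1128 boxes in these 434 regions, 87.5% were upstream, 28.5% fell between -100 and -51 bp, 25.9% between -50 and -1 bp, and 5.67% in the first 50 bp downstream.

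The box closest to the TSS had a similar median position in regions with 2 and with more boxes. The box of 1-box peaks had a median of -44 bp (-55 to -35). With 2 boxes, the TSS-proximal box had a median position of -32 bp (-41 to -28) and the distal one -78 bp. With 3 or more, the most proximal box stood at -34 bp (-41 to -26) and the most distal at -124 bp. The outermost of several boxes depend on the number of boxes by construction, so these positions are not on equal terms. CCAAT was on the gene's strand in 49.3% of the boxes (46.4 to 52.2), and on the other strand in the rest. Among the 254 regions with exactly 2 boxes near a TSS, both read CCAAT in 82, both read ATTGG in 86, ATTGG preceded CCAAT in 56 and CCAAT preceded ATTGG in 30. Of all 471 regions, 13.4% had protein-coding TSSs on both strands within 1 kb, and this share was 22.4% (14.1 to 33.7) with 4 or more boxes, 10.8% (6.52 to 17.3) with 3 and 12.4% (9.02 to 16.8) with 2, with overlapping intervals.

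**Figure D2:**
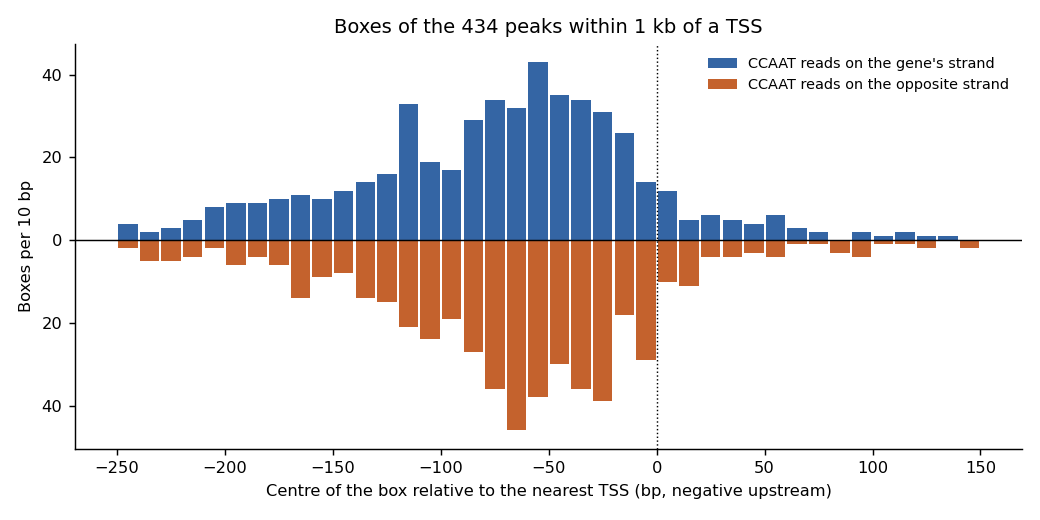
Number of CCAAT boxes per 10 bp (y axis) by the position of the box centre relative to the nearest TSS in bp (x axis), for the 434 regions within 1 kb of a TSS, drawn upward where CCAAT reads on the gene's strand and downward where it reads on the opposite strand. Boxes of both directions crowd between -100 bp and the TSS, and the 49.3% on the gene's strand leave the plot nearly symmetric.

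The distance between summit and boxes was part of the rule and is given as a description. The nearest box centre was a median of 11 bp from the summit (9 to 12), against 19 bp (16 to 21) in peaks with 1 box. A region with more boxes is more likely to have one near any point, so the distances are not on equal terms. With exactly 2 boxes, the summit lay between their centres in 61.7% of regions (55.8 to 67.2).

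Fold enrichment belongs to the readout that defined the list and is given as a description. The median was 6.995 in the 471 regions (6.75 to 7.32, quartiles 5.503 and 9.22, range 2.97 to 53.1), 6.49 (6.27 to 6.78) in peaks with 1 box and 5.40 in peaks with none. Among the regions the median did not rise steadily with the number of boxes, with 6.91 for 2 boxes, 6.75 for 3 and 7.41 (6.57 to 8.02) for 4 or more and overlapping intervals. The regions were most frequent at the top of the list. Fold enrichment reached 10 in 19.96% of the regions (16.6 to 23.8) and in 12.9% of the peaks with 1 box (8.99 to 18.1), whose intervals overlap, and it reached 20 in 20 regions (4.25%) and 2 peaks with 1 box (0.952%). When all peaks were ranked by fold enrichment and cut into 4 groups of equal size, from lowest to highest the regions made up 56.5%, 59.6%, 67.8% and 73.2%. They took 77 of the top 100 places and 8 of the top 10.

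**Figure D3:**
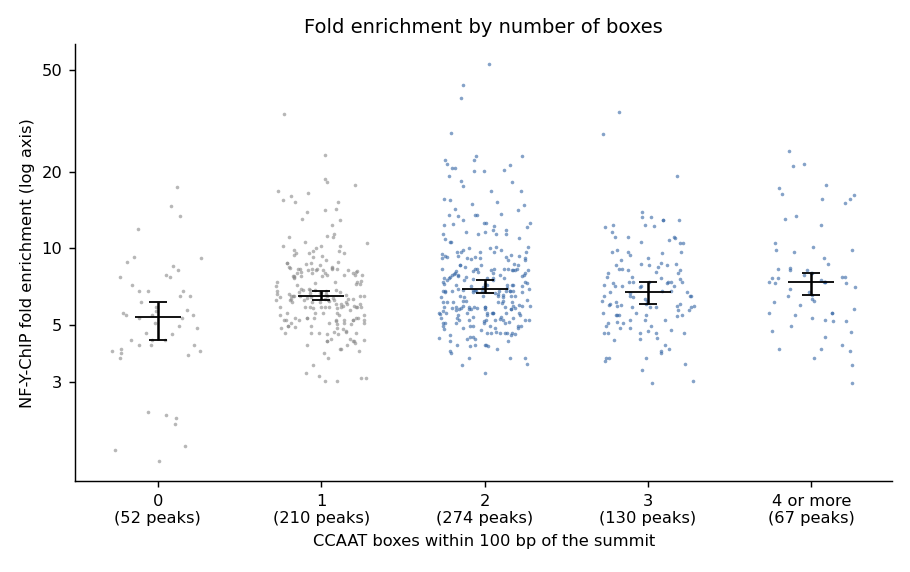
NF-Y-ChIP fold enrichment on a log axis (y axis) for each of the 733 peaks (points), by the number of CCAAT boxes within 100 bp of the summit (x axis), with the median and its 95% interval (black). The medians for 2, 3 and 4 or more boxes lie between 6.75 and 7.41, and the regions above 20-fold mostly hold 2 boxes.

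Fold enrichment did not separate the layouts beyond their intervals. In regions with exactly 2 boxes, the median was 7.93 (6.75 to 9.31) for 62 back-to-back pairs, 6.85 for 35 facing pairs and 6.79 (6.22 to 7.26) for 177 pairs in the same orientation, with overlapping intervals. Pairs in the same orientation 39 to 43 bp apart had a median of 8.59 (6.43 to 11.6, 37 regions), and those 29 to 33 bp apart had 6.87 (6.14 to 7.63, 55 regions). Besides Fam204a, the strong back-to-back regions included Cep41, a gene for a centrosomal and ciliary protein, at 28.3-fold with 23 bp between box starts. Ccdc66, which also encodes a centrosomal protein, reached 23.2-fold with 24 bp. Dicer1, which encodes the nuclease that cuts microRNA precursors, had the same fold enrichment with back-to-back boxes 95 bp apart.

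The bases beside the boxes carried the NF-Y preference unevenly. The extended box, as used here, has 2 purines before CCAAT, then G or C and a purine after it. Of the 1-box peaks, 65.7% (59.1 to 71.8) had an extended box. In the 471 regions the box nearest the summit was extended in 54.4% (49.8 to 58.8) and the other boxes in 43.4% (39.9 to 46.9), against 33.7% (31.8 to 35.6) of the boxes of comparison promoters with 2 or more. In comparison promoters with 1 box the share was 29.9% (28.1 to 31.7). Single boxes were thus the most often extended within NF-Y peaks and the least often outside them. Extended boxes numbered 2 or more in 168 regions (35.7%, 31.5 to 40.1) and none in 88 (18.7%). Hnrnpab, first by fold enrichment, was among the 88.

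H3K4me3 was a readout that the choice of regions did not use. Over all NF-Y peaks 88.0% overlapped an H3K4me3-ChIP peak by 1 bp or more. Among the 471 regions 447 did (94.9%, 92.5 to 96.6), against 83.3% (77.7 to 87.8) of peaks with 1 box and 44.2% of peaks without a box. Near a TSS the difference was not seen: 97.5% of the 434 regions and 96.5% of the 173 peaks with 1 box within 1 kb overlapped. Beyond 1 kb, 24 of 37 regions overlapped (64.9%, 48.8 to 78.2), against 8 of 37 peaks with 1 box (21.6%, 11.4 to 37.2). The median fold enrichment of the overlapping H3K4me3-ChIP peaks was 44.96 (42.95 to 46.7) for the regions and 44.2 (40.4 to 48.2) for peaks with 1 box. H3K4me3-ChIP peaks stood within 1 kb of a TSS of all 19 listed neural progenitor genes and all 26 listed neuron genes, as at every gene of the other lists used here, beside 62.7% of all 21924 protein-coding genes. None of the 471 regions lay within 1 kb of a TSS of these listed genes, and the only NF-Y peak there, at the progenitor transcription factor gene Insm1, had 1 box. Over all protein-coding genes, 2.22% had such a region and 3.17% such a peak, so lists of this size are too short to show a difference from that share.

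**Figure D4:**
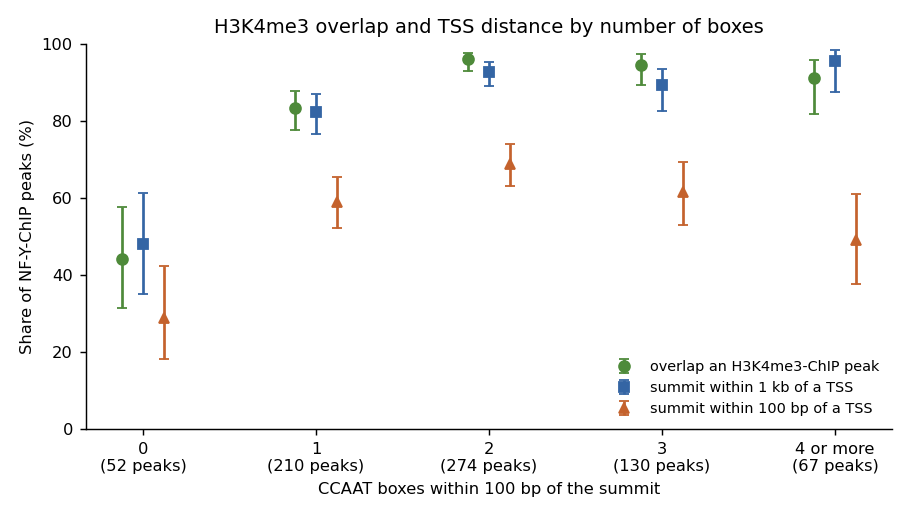
Share of NF-Y peaks in percent (y axis) that overlap an H3K4me3-ChIP peak, have a summit within 1 kb of a TSS, or have a summit within 100 bp of a TSS, by the number of CCAAT boxes (x axis), with 95% Wilson intervals. The first share is 44.2% without a box, 83.3% with 1 box and 91.0% or more with 2, 3 and 4 or more, and the share within 100 bp falls from 69.0% with 2 boxes to 49.3% with 4 or more.

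The 434 regions near a TSS reached 486 protein-coding genes. As background, 69.9% of the 695 protein-coding genes with an NF-Y summit within 1 kb of a TSS had a region with 2 or more boxes. Among the cell cycle lists, only the interval of the G2/M list (81.6 to 100.0) lay above that share. All 17 genes with an NF-Y peak in the G2/M list of the Seurat package, and all 7 in its S phase list, had 2 or more boxes. Lists of related function overlap with these, since 12 of the genes with a peak are in more than 1 list. All 6 cyclin, CDK and mitotic kinase genes with a peak had several boxes. So had 8 of 11 spindle, kinetochore and cytokinesis genes. The exceptions were Racgap1, Depdc1a and Depdc1b, the last with the fifth highest fold enrichment of all peaks (33.7) on 1 box. Among replication and repair genes 4 of 5 had several boxes. Brca1 was counted there through a 2-box peak whose nearest gene was Nbr1, while the peak nearest to Brca1 itself had 1 box. In the kinase and G2/M lists, Cdc25c was counted through a region whose nearest gene was 2010110K18Rik. Hmmr entered the G2/M count through a region nearest to Nudcd2.

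For genes of the ER and of lipid synthesis the counts were again small, and where 1 gene had a single box the intervals included the background. All 9 genes of ER-associated degradation and the unfolded protein response with a peak had 2 or more boxes, with an interval of 70.1 to 100.0 that barely cleared the background. Of these, the regions of Derl2 and Ufd1 had Mis12 and Cdc45 as the nearest gene, and without them the list would be as short as that of S phase, whose interval (64.6 to 100.0) includes the background. Of 8 ER chaperones and folding enzymes 7 had several boxes. Dnajb9, an ER co-chaperone gene, was the exception with 1 box. Of 7 cholesterol and fatty acid synthesis genes with a peak 6 had several. Srebf2, which encodes the transcription factor that drives this pathway, had 1 box. Splicing and hnRNP genes split evenly, with 3 of 6. Iars was the only aminoacyl-tRNA synthetase gene with a peak. These shares rest on few genes and their difference from the background was not tested.

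Most of the G2/M regions held a second element that the choice of regions did not use. The cell cycle genes homology region (CHR) is the site through which MuvB complexes repress and then activate mitotic genes, and its letters TTTGAA were searched on both strands. A CHR was in 43 of the 471 regions (9.13%, 6.85 to 12.1), in 9.05% of peaks with 1 box, in 6.29% of the comparison promoters and in 8.89% (7.29 to 10.8) of those with 2 or more boxes. Of the 17 G2/M regions 13 had one (76.5%, 52.7 to 90.4), against 30 of the other 454 regions (6.61%, 4.67 to 9.28). None of the 7 S phase regions had one, and neither had any of the ER and lipid synthesis regions. A CHR was not particular to the G2/M list, and 4 of the 5 multi-box regions within 1 kb of a TSS of a histone cluster gene, a group picked after its values were seen, also had one. Of the multi-box regions at other histone genes or farther away, that of H2afv had a CHR and those of H3f3b, Hist1h1b and Hist1h4d had none. In the sequences that follow, the 5 G2/M regions are shown because they place the CHR (TTTGAA or TTCAAA in capitals) beside the boxes, and Aspm and Wdr62 because the study displayed them together with Mki67 and Ube2c. The Aspm stretch ends inside its CHR, which is therefore not in capitals. The summit of Wdr62 was in an exon and the others were outside genes.
Top2a, chr11:99024192-99024383, minus strand: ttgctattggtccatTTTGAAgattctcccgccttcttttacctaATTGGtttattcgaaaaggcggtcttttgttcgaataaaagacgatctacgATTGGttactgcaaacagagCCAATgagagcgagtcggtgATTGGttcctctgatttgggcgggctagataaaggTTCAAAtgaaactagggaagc
Cks2, chr13:51645152-51645307, plus strand: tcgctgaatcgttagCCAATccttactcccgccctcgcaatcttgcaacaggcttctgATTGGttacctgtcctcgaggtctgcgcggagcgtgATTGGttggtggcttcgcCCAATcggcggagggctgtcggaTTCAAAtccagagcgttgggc
Ttk, chr9:83834609-83834716, plus strand: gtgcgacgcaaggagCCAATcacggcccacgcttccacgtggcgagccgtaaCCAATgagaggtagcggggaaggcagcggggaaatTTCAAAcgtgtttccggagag
Ube2c, chr2:164769826-164769920, plus strand: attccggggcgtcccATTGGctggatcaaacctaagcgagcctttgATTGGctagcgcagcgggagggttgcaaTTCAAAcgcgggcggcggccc
Mki67, chr7:135716457-135716582, minus strand: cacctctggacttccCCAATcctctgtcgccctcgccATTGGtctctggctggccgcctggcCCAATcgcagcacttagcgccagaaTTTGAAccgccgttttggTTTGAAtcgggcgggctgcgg
Aspm, chr1:139454670-139454780, plus strand: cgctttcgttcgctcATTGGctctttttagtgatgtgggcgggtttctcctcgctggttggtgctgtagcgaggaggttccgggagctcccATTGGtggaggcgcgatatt
Wdr62, chr7:30280420-30280513, minus strand: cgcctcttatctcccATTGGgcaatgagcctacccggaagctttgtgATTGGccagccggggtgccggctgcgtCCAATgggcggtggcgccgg

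The 13 G2/M regions held 16 CHR matches, and 10 of these lay downstream of every box of their region, toward or past the TSS. In the other regions 13 of 31 matches did. The gap between the end of the nearest upstream box and the CHR had a median of 21.5 bp (18 to 33, range 7 to 46, 14 matches with such a box), against 29 bp (17 to 47) in the other regions, with overlapping intervals, and the median CHR was 5 bp upstream of the TSS (quartiles -77.25 and 15.5). Top2a, the topoisomerase that untangles chromosomes before mitosis, had 4 boxes at 24.2-fold, and a gap of 30 bp between its last box and the downstream CHR. Cks2, a CDK subunit gene, had 4 boxes at 21.5-fold and a gap of 18 bp. Ttk, which encodes a spindle checkpoint kinase, had boxes 37 bp apart at 15.01-fold and a gap of 30 bp. Ube2c, which encodes the E2 enzyme of the anaphase-promoting complex, had 2 extended boxes 31 bp apart at 8.20-fold and a gap of 23 bp.

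Mki67, the gene of the proliferation antigen Ki67, had 3 boxes 22 and 25 bp apart and in alternating directions, 2 CHR matches downstream of them, and 8.02-fold enrichment, with a summit 143 bp upstream of the TSS. Aspm and Wdr62, both microcephaly genes whose proteins act at spindle poles, were not in the G2/M list. The Aspm boxes stood 76 bp apart at 8.64-fold and a CHR lay 9 bp downstream of the TSS. Wdr62 had 3 boxes 32 and 27 bp apart, no CHR and 6.49-fold enrichment. Hmmr, whose product binds hyaluronan and spindle microtubules, shared a divergent promoter with Nudcd2 in a region of 3 boxes, 33 and 43 bp apart, at 28.3-fold.

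**Figure D5:**
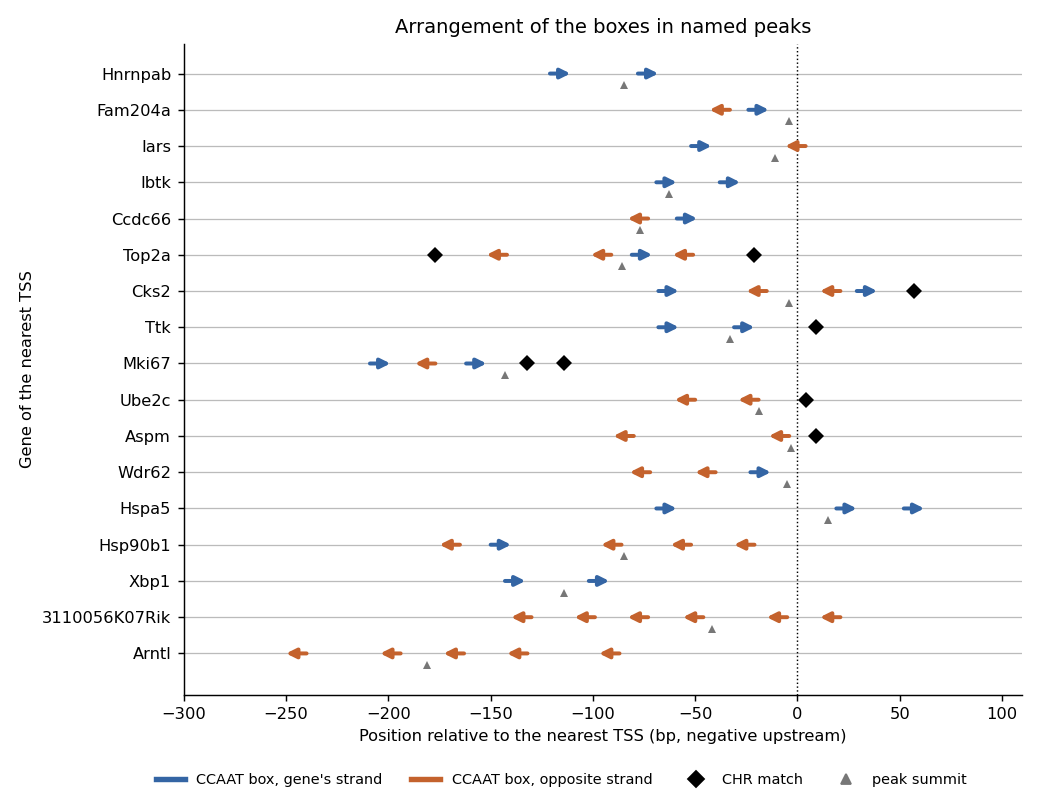
Position of each CCAAT box (arrows, pointing in the direction of CCAAT), CHR match (diamonds) and summit (grey triangles) relative to the nearest TSS in bp (x axis) in 17 regions named in the text (rows). The CHR matches of Cks2, Ttk, Mki67 and Ube2c and one of those of Top2a lie to the right of the boxes, and 3110056K07Rik and Arntl show arrays in a single direction.

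Some of the ER regions held a different element. The ER stress response element (ERSE) joins a CCAAT box to CCACG with 9 unspecified bases between, and ATF6 or XBP1 is known to bind its CCACG end beside NF-Y. It contains a box, so only windows with a box can hold it. It was found in 6 regions (1.27%, 0.585 to 2.75), in 1 peak with 1 box (0.476%) and in 5 of 12337 comparison promoters (0.0405%). Of the 1012 comparison promoters with 2 or more boxes 0.494% held it, with an interval of 0.211 to 1.15. The 6 regions were those of Hspa5, Hsp90b1, Dnajc3, Xbp1, Derl3 and Foxk1, of which the first 5 are in the ER lists. These were 3 of the 7 regions of ER chaperones and folding enzymes and 2 of the 9 of ER-associated degradation and the unfolded protein response. They are represented here by 4 regions, with the CCACG of the element in capitals too (CGTGG on the other strand). The summits of Hspa5 and Xbp1 were in exons and those of Hsp90b1 and Dnajc3 outside genes.
Hspa5, chr2:34771889-34772058, plus strand: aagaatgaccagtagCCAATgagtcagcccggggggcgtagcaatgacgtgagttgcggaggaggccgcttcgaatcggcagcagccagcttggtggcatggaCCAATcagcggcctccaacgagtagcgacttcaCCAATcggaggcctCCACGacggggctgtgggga
Hsp90b1, chr10:86705518-86705696, minus strand: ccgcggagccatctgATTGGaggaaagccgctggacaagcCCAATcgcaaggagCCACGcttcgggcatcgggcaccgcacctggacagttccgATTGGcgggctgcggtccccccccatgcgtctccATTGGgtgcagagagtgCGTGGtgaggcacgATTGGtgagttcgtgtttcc
Dnajc3, chr14:118937812-118937906, plus strand: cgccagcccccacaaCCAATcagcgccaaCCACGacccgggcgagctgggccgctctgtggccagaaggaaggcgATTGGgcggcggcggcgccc
Xbp1, chr11:5520850-5520939, plus strand: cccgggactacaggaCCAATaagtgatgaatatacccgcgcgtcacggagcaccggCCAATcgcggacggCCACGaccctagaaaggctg

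Hspa5 encodes BiP, the main chaperone of the ER lumen. Its region had 3 boxes in one orientation, 88 and 33 bp apart, at 12.4-fold. Hsp90b1, which encodes the chaperone GRP94, had 5 boxes at 8.24-fold, and the element occurred in both directions. Dnajc3, an ER co-chaperone gene, had facing boxes 60 bp apart at 3.94-fold, rank 690 of the 733 peaks. Xbp1 and Atf4, the genes of transcription factors of the unfolded protein response, each had a pair of boxes 41 bp apart, both reading CCAAT on the gene's strand, with fold enrichments of 4.64 and 4.51. The highest value of the ER lists was at Dnajb11, with 4 boxes in one orientation and 16.2-fold.

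Of the other elements searched on both strands, one was more frequent in the 1-box peaks than in the multi-box regions. The E box CACGTG was in 9.34% of the 471 regions (7.03 to 12.3) and in 21.4% of the peaks with 1 box (16.4 to 27.5). It was in 7.83% of the comparison promoters (7.37 to 8.32), an interval that overlaps that of the regions. Near a TSS the shares were 9.45% (7.04 to 12.6) and 23.1% (17.5 to 29.9). It fell from 10.6% with 2 boxes to 8.46% with 3 and 5.97% with 4 or more, with overlapping intervals. The GC box GGGCGG was about equally common in regions, 1-box peaks and comparison promoters (61.6%, 58.1% and 59.5%). The cAMP response element core TGACG gave similar shares (25.5%, 28.1% and 26.02%). TATAAA was in 2.97%, 6.67% and 4.09%, with overlapping intervals. The E2F-like site TTTGGCGC was in 8 regions (1.70%, against 2.38% and 0.738%), those of E2f1, E2f8, Mcm3, Mcm5, Pole, Ezh2, Arntl and Nfic.

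The base composition of the windows shifted with the number of boxes, and GC content had a median of 63.2% with 2 boxes, 60.7% with 3 and 58.7% (56.7 to 60.2) with 4 or more, where 63.4% was the value for peaks with 1 box. CCAAT is itself richer in A and T than these windows. More boxes therefore lower GC content in part by construction. Repeat-masked bases touched 29.9% of the windows (25.98 to 34.2), against 42.9% (36.4 to 49.6) of the 1-box windows. Only 22 of the 1223 boxes themselves (1.80%) lay in repeat-masked bases, and 1 region had 2 or more boxes there.

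The 37 regions beyond 1 kb of a TSS and the 24 without H3K4me3 made a small remainder. Beyond 1 kb, 65.5% of 58 pairs had the same orientation and 36.8% of these (23.4 to 52.7) were 29 to 33 bp apart. The regions without the mark had a median fold enrichment of 5.57 (4.32 to 7.41) and a GC content of 52.2% (46.3 to 55.7), against 7.10 (6.79 to 7.40) and 62.2% in those with it. They held 2 or more extended boxes in 58.3% (38.8 to 75.5), against 34.5% (30.2 to 38.97). The intervals of fold enrichment and of extended boxes overlap. The strongest distal region, in an intron and at -4392 bp from the TSS of the pseudogene Gm13039, reached 22.2-fold on back-to-back boxes 33 bp apart and overlapped H3K4me3. The lincRNA D030068K23Rik had a region of 4 extended boxes in one orientation, 39, 36 and 39 bp apart, 30875 bp downstream of its TSS at 9.15-fold, without H3K4me3. A region near Nfic, at 3.89-fold and without H3K4me3, had 3 boxes in one orientation, 30 and 31 bp apart.

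Bahcc1, a gene for a chromatin-binding protein, was the only gene with 3 regions more than 1 kb downstream of a TSS that was the nearest to each. All 3 summits lay beyond its annotated 3′ end and outside the genes of the annotation used, and their sequences are shown because all of them contain a back-to-back pair. These regions were singled out after their values were seen.
Bahcc1 region 1, chr11:120305270-120305355, plus strand: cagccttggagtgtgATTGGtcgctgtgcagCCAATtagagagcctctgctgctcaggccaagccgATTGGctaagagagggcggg
Bahcc1 region 2, chr11:120310942-120311002, plus strand: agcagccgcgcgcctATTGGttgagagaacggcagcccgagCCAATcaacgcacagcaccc
Bahcc1 region 3, chr11:120316206-120316266, plus strand: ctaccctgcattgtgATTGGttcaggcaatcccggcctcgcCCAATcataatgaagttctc

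The summits lay 15487, 21179 and 26457 bp downstream of the nearest TSS of Bahcc1, with fold enrichments of 8.62, 8.99 and 10.6. The back-to-back boxes were 16 bp apart in region 1 and 26 bp apart in the others. All 3 overlapped H3K4me3-ChIP peaks, with fold enrichments of 29.9, 12.4 and 17.7, each below the median of 44.96 over the regions. Histone genes of the clusters were a further group noticed in the results: 5 of their 6 NF-Y peaks within 1 kb of a TSS had 2 or more boxes, beside 68.7% of all 632 NF-Y peaks within 1 kb of a TSS, and their median was 7.75-fold. Hist1h3c had 5 boxes that all read CCAAT on the gene's strand, and Hist1h2ad had 4 that alternated in direction.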

How the data were processed

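There was 1 library each of input, NF-Y-ChIP and H3K4me3-ChIP, and 2 peak lists were used here; no list of the input was used. Per the submitters' processing notes, the authors aligned reads with Bowtie2 2.2.8 to GRCm38 and called peaks with MACS2 2.1.2. The thresholds, from the study's methods, were p under 0.001 for NF-Y and q under 0.05 for H3K4me3, and the input was the study's negative control, though how the caller used it is not given in the sources used here. The deposited lists give a fold enrichment ratio over the caller's background, −log10 p-values and q-values, and a score for display. This deposited score identified each list, because the authors' thresholds were on p for NF-Y and on q for H3K4me3. In all 733 rows of one list the score equals 10 times −log10 p, rounded down. In all 18816 rows of the other it equals 10 times −log10 q, rounded down. Neither list gives read counts, which leaves the depth of every library unknown.

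CCAAT was searched on both strands of GRCm38 within 100 bp of each summit with Python 3.11.15, pandas 2.3.3, NumPy 2.4.6, SciPy 1.17.1, pysam 0.24.0 and samtools 1.23.1, and figures were drawn with matplotlib 3.10.9. Spacing was start to start between neighbouring cores, and 8 cores that overlapped another core counted as boxes but formed no pair. TSSs and gene parts came from GENCODE M21. Comparison windows were centred 57 bp upstream of gene 5′ ends. Shares carry 95% Wilson intervals and medians order-statistic intervals. Both treat peaks as draws from their list, peaks are not replicates, and no test between conditions was possible. The scripts were tested on simulated sequences.

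The G2/M and S phase lists came from Seurat 5.3.0, with human symbols rewritten in mouse letter case, and the other lists were written from general knowledge. The members and lists were chosen with earlier results of these data known. Named genes were the 10 regions with the highest fold enrichment, the 5 with the most boxes, the strongest pairs near the commonest spacing of each orientation, listed genes, genes the study displayed, and regions at the edge of the rule. Regions beyond Bahcc1, at histone genes, at Nfic and D030068K23Rik, and CHR or E2F matches outside the lists were chosen after their values were seen. Alternatives changed the window, the box definition, the peak threshold, the TSS set and the overlap with H3K4me3.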

Additional observations from a re-analysis of the deposited data

How the results depend on the processing

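Across 42 alternatives for 8 results, 28 values stayed within the reported interval or, for the count, within 1.5 times, and 14 moved. Only the median distance to the TSS could change sign, and it stayed upstream. The other results are positive by construction, so their direction could not change. Counting only extended boxes left 168 regions in place of 471, with a median spacing of 40 bp and 68.8% of neighbouring boxes in the same orientation. Keeping only peaks at or above the median fold enrichment left 259, a cut that by construction removes nearly as many peaks as it keeps. Keeping only peaks with q under 0.05 left 455. The median spacing was 32 bp in a window of 50 bp to each side, 40 bp in one of 150 bp and 48 bp over all pairs in a peak, and a wider window admits wider spacings by construction. The share within 1 kb of a TSS was 85.1% when only the 5′ ends of genes were used and 64.1% with a limit of 100 bp. The overlap with H3K4me3 was 79.8% with the stronger 50% of H3K4me3-ChIP peaks, 87.0% when 50% of the NF-Y-ChIP peak had to be covered and 86.4% when the summit had to lie inside. The share with 2 or more extended boxes was 30.9% in a window of 50 bp and 60.5% when any base was allowed after 2 purines and CCAAT. The median distance to the TSS and the median fold enrichment moved under none of their alternatives. No paired analysis was possible because each antibody had 1 library. Without replicates, how far these peaks would recur in another NF-Y-ChIP cannot be told.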
